A study of Mus musculus with 119 samples.

Results

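The data described here are RNA sequencing counts of muscle satellite cells with low surface CD34 (CD34Lo) from adult mice, set against the same cells from young mice. They are 8 of the 119 samples of the series, namely the 4 libraries labelled adult CD34Lo and the 4 labelled young CD34Lo of its experiment 2, and they were chosen by those labels alone. All the mice were wild type (WT), carried no transgene or Cre by their labels and had received no treatment. The labels call the later age adult, the title of the deposited table calls it old, and neither gives a number of months. Cells were sorted from dissociated, uninjured skeletal muscle. Those with CD45 (on leukocytes), CD31 (on vessel lining) or Sca-1 (on many fibroblasts and vessel cells) were discarded, and those positive for α7-integrin and CD34 were kept. RNA was taken directly after the sort. Libraries were made with a kit that amplifies cDNA from very small inputs. No label ties a library to an animal, so that the p-values rest on the spread between libraries, which may be technical. For comparison, experiment 2 also holds 3 adult and 4 young libraries of cells with high CD34 (CD34Hi), and experiment 1 holds 4 geriatric and 4 young CD34Lo libraries of WT mice.

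Satellite cells are the stem cells of skeletal muscle and lie between a fibre and its basement membrane. Pax7 marks them, Myod1 and Myf5 mark commitment to muscle, and Myog marks the start of differentiation. CD34 is a surface sialomucin that is high on quiescent satellite cells, and its level falls as they activate. Sorted satellite cells can carry traces of neighbouring cells, among them fibroblasts, tendon cells and the mesothelial cells that line body cavities and cover the diaphragm and body wall. In a bulk library, fewer cells of a type and less RNA per cell cannot be told apart.

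The 8 CD34Lo libraries held 4.16 M to 8.39 M counts (M, mega) over 24421 gene symbols. In correlations of log2 CPM across genes, which are no independent replicates, young replicate 4 reached 0.855 to 0.868 with the other young libraries, while those reached 0.969 to 0.976 among themselves. Adult replicate 4 reached 0.932 to 0.950 with the other adult libraries, against 0.954 to 0.962 among these. Replicate 4 of each age stands apart from its group, the young one by more. Results are therefore given with and without young replicate 4, and results that rest on adult replicate 4 are marked. Levels are CPM, that is counts per M counts of a library after scaling by TMM, the trimmed mean of M-values. CPM are not corrected for gene length and are compared here between libraries, not between genes. Fold changes are log2 values from edgeR's quasi-likelihood fit with their standard error (SE), adult over young, and adjusted p-values are by Benjamini-Hochberg over all genes tested with a threshold of 0.05.

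Of 12857 genes tested, 164 were higher and 45 lower in adult than in young CD34Lo cells (1.63% called, 1.28% higher and 0.35% lower), and 1752 had an unadjusted p under 0.05. Without young replicate 4, 348 were higher and 190 lower of 12805 tested (4.2% called, 2.72% higher and 1.48% lower). All of the 164 higher genes and 43 of the 45 lower genes were called both ways. The 2 genes lost were the chaperone gene Hspb1 and Mal, a membrane trafficking gene. The 4 adult libraries lay above all 4 young libraries for all 164 higher genes, where 4.53% of all tested genes did so. They lay below them for 43 of the 45 lower genes, where 2.89% of all tested genes did so. The calls rest on these same values, so the separation is no further support for them. In 139 of the 164 higher genes the highest value belonged to adult replicate 4. Without it 91 genes were higher and 23 lower, without young replicate 1 the counts were 96 and 26, and without adult replicate 2 they were 111 and 19. In all, 86 of the higher and 10 of the lower genes passed the threshold in each of the 8 fits that left out 1 library. In a fit of the 8 CD34Lo libraries alone 120 genes were higher and 17 lower, and DESeq2 called 366 and 169.

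Genes known from mesothelium were a group with members among the higher genes. Of 20 tested genes on a list of mesothelial markers, which was written after these values were seen, 13 were higher, 0 were lower and the median log2 fold change was 1.908, where the median of all genes tested was -0.043. The 13 are 65% of those tested, where 1.28% of all tested genes were higher. As the list was chosen on these values, its share and its rank among the lists are no independent support. Without young replicate 4, 17 were higher with a median of 2.24, and the other omissions gave 11 or 12. Msln encodes mesothelin, the surface protein that gives these cells their marker, and lies on chromosome 17 at 25748613 to 25754378 of mm10. It had 447, 468, 424 and 770 CPM in adult CD34Lo libraries, against 86, 103, 89.1 and 113 CPM in young CD34Lo libraries. Every adult library stood well above every young one, young replicate 4 included, and the log2 fold change was 2.43 (SE 0.26, adjusted p = 0.000176). Upk3b, a uroplakin used as a mesothelial marker, had 265, 324, 268 and 515 CPM in adult libraries, against 89.1, 81.7, 82 and 78.9 CPM in young libraries (log2 fold change 2.05, adjusted p = 0.000881). The 4 young values of Upk3b were nearly equal, whereas adult replicate 4 stood above the other adult libraries. Lrrn4, a leucine-rich repeat protein of mesothelial cells, had 212, 234, 168 and 431 CPM in adult libraries, against 35.1, 64, 23.3 and 22.3 CPM in young libraries (log2 fold change 2.85, adjusted p = 0.00353).

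Keratins and junction genes of simple epithelia rose with them. Krt8 (log2 fold change 2.24, adjusted p = 0.00259) and Krt7 (1.87, adjusted p = 0.00604) encode keratins of such epithelia. Krt7 had 82.4, 94.6, 69.6 and 163 CPM in adult libraries, against 23.7, 25, 21.5 and 42.4 CPM in young libraries. Replicate 4 held the highest value of each group and the groups did not overlap. Krt18, the partner of Krt8 in filaments, had 125, 173, 159 and 355 CPM in adult libraries, against 36.3, 52.9, 39.5 and 130 CPM in young libraries. Young replicate 4 lay within the adult range, and Krt18 passed the threshold without it (log2 fold change 2.25, adjusted p = 0.00178) but not with it (1.66, adjusted p = 0.0709). Of 18 tested keratin and epithelial junction genes, 10 were higher and 0 lower, a list also written after the values were seen, and 6 were higher without young replicate 1, 2 or 3 or adult replicate 2 or 4. The 10 are 55.6% of those tested, where 1.28% of all tested genes were higher. The 10 include the cadherin Cdh3 (2.66), the desmosomal plakophilin Pkp2 (1.39), the p53 target Perp (2.53), and the claudin Cldn15 (1.94). F11r, Gjb5, Krt14 and Krt19 were lost in 5 to 7 of the 8 omissions, with adjusted p-values of up to 0.137, 0.127, 0.141 and 0.173.

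Other mesothelial genes on the list had retinoid, adhesion and signalling roles. Aldh1a2, which makes retinoic acid, had 74.8, 98.4, 80.6 and 150 CPM in adult libraries, against 22.8, 23.1, 12.4 and 14.8 CPM in young libraries (log2 fold change 2.47, adjusted p = 0.00185). Ezr, a linker of membrane and actin, was higher by 1.59, Gpm6a by 2.29, the Wnt agonist Rspo1 by 2.00 and the uroplakin Upk1b by 1.87 (adjusted p = 0.0561 in the fit of the 8 CD34Lo libraries alone). Bnc1, a zinc finger factor of mesothelium and keratinocytes, was higher by 2.34 but was lost in 2 of the 8 omissions, with an adjusted p of 0.0589 without adult replicate 4. Wt1, the transcription factor of mesothelium, had 9.11, 12.6, 15.7 and 31.8 CPM in adult libraries, against 0.187, 4.21, 2.27 and 10.5 CPM in young libraries. The 2 groups overlapped for Wt1, which passed the threshold without young replicate 4 (adjusted p = 0.0408) but not with it (0.252). Nkain4, a membrane protein, had 70.7, 90.6, 67.4 and 148 CPM in adult libraries, against 13.3, 22.1, 16.2 and 134 CPM in young libraries, so that young replicate 4 alone lay within the adult range. Itln1 had no counts in any of the 8 libraries. Summed over the list, mesothelial markers stood at 4172, 5140, 4438 and 8598 CPM in adult libraries, against 1583, 1587, 1444 and 2664 CPM in young libraries. The part that mesothelial cells had in the higher genes was not tested.

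Complement genes, which encode a cascade of plasma proteins that mark targets for phagocytosis, were the next group. Of 21 tested members, 8 were higher and 0 lower, with a median of 1.23 (9 higher without young replicate 4, median 1.307), and this list too was written after the values were seen. The higher members were 38.1% with all libraries and 42.9% without young replicate 4, where 1.28% and 2.72% of all tested genes were higher. C3, the central component, had 2370, 2337, 3040 and 3718 CPM in adult libraries, against 572, 581, 540 and 243 CPM in young libraries (log2 fold change 2.57, SE 0.37, adjusted p = 0.00117). Cfb, the protease of the alternative pathway, had 736, 758, 893 and 1334 CPM in adult libraries, against 152, 129, 122 and 115 CPM in young libraries (2.85, SE 0.28, adjusted p = 7.2e-05). C4b, shared by the classical and lectin pathways, had 281, 210, 333 and 441 CPM in adult libraries, against 27.5, 36.5, 28 and 7.1 CPM in young libraries (3.67, SE 0.47, adjusted p = 0.000585). In all 3 genes the groups were far apart, and in each young replicate 4 was the lowest library of all. The proteases C2 (2.30), C1ra (2.19) and C1s1 (2.14) also rose, and none of these 6 genes was lost in any omission. Serping1, the inhibitor of the first proteases, was higher by 0.63 (adjusted p = 0.0444) and Clu, which restrains the terminal complex, by 1.11 (adjusted p = 0.03). Serping1 was lost in 6 of the 8 omissions and Clu in 5, with adjusted p-values of up to 0.139 and 0.123 without adult replicate 4. C8a, C8b, C9 and Hc, genes of the terminal pore, had no counts in any of the 8 libraries. C4b, C1ra and C1s1 have near-identical neighbours (C4a, C1rb and C1s2), so their reads may be split. The mesothelial marker sum given above was, like the complement sum, higher in every adult than in every young library. Within the young group, replicate 4 had the highest mesothelial sum (2664 CPM). It had the lowest complement sum (2469 CPM, against 3177 to 3482 CPM in the other young libraries). The part of mesothelial cells in the complement genes was not tested.

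**Figure D1:**
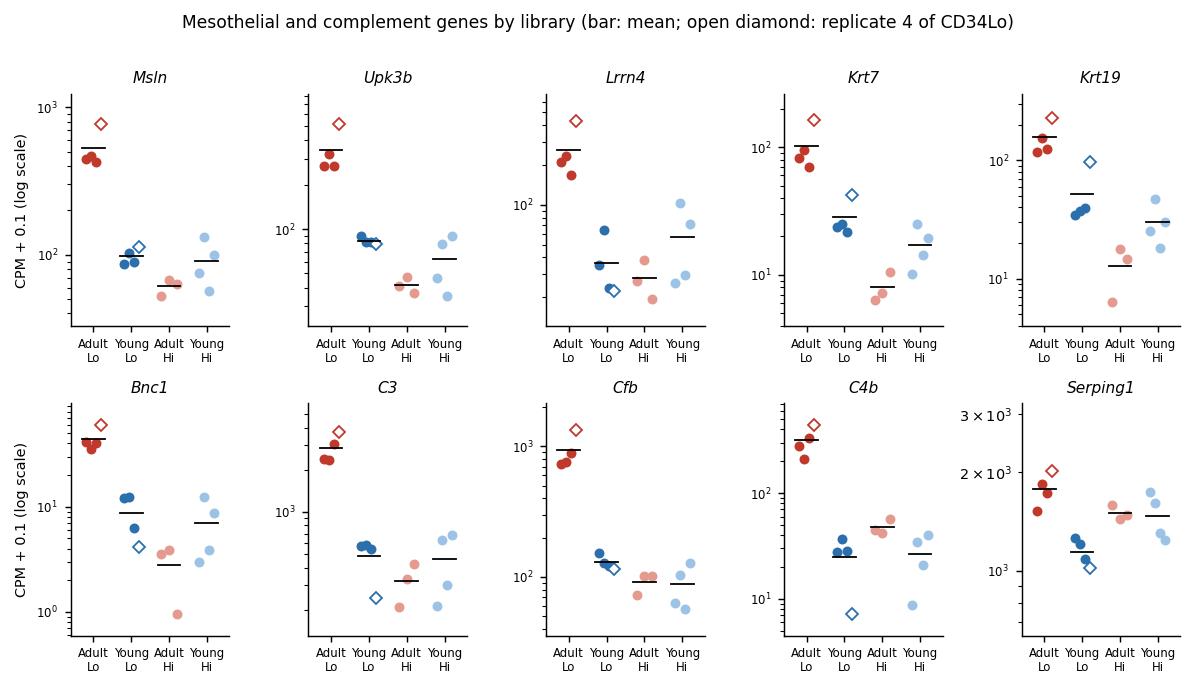
Levels of 6 genes known from mesothelium and 4 complement genes by library, as CPM + 0.1 on a log axis, for adult and young CD34Lo and adult and young CD34Hi cells. Bars are group means and open diamonds are replicate 4 of each CD34Lo group. Adult CD34Lo libraries lie above young CD34Lo libraries in all 10 panels, whereas the adult and young CD34Hi libraries of Msln and Cfb overlap.

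Markers of fibroblasts and fibro-adipogenic cells moved in part. Of 36 tested members 7 were higher and 1 lower (median 0.627), and without young replicate 4 these were 13 and 2 (median 0.998). Calls were 22.2% and 41.7% of the list in these fits, where 1.63% and 4.2% of all tested genes were called. Without adult replicate 4, 5 were higher and 1 lower, with a median of 0.188. Dpp4, a surface peptidase of connective tissue progenitors, had 169, 128, 110 and 267 CPM in adult libraries, against 34.2, 31.4, 33.3 and 24.1 CPM in young libraries (log2 fold change 2.45, adjusted p = 0.000585). Clec3b (2.62), the fibulin-like matrix protein Efemp1 (2.19), the hyaluronan synthase Has1 (1.86), Smoc2 (1.94) and Fbln1 (1.67) were higher as well, and C3 stands on this list too. Smoc2 was lost in 1 and Fbln1 in 3 of the 8 omissions, with adjusted p-values of up to 0.0633 and 0.077 without adult replicate 4. Dcn, the proteoglycan decorin, had 1905, 3098, 2285 and 5918 CPM in adult libraries, against 633, 755, 795 and 2748 CPM in young libraries. Young replicate 4 exceeded adult replicates 1 and 3, so that Dcn passed the threshold without it (2.19, adjusted p = 0.000691) and not with it (1.42, adjusted p = 0.132). Pdgfra, the receptor that defines fibro-adipogenic progenitors, had 3.38, 3.97, 4.85 and 34.7 CPM in adult libraries, against 3.92, 0.638, 5.11 and 4.26 CPM in young libraries. Apart from adult replicate 4 the Pdgfra values of both ages covered the same range, and the gene did not pass the threshold. Ly6a, which encodes Sca-1 and was selected against in the sort, had 13.3, 38.4, 24.8 and 147 CPM in adult libraries, against 35.1, 27.4, 55.6 and 259 CPM in young libraries. Replicate 4 held the highest Ly6a of each group. The list summed to 11428, 12658, 12345 and 21256 CPM in adult libraries, against 7271, 7861, 8246 and 8751 CPM in young libraries.

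Postn, the matricellular protein periostin, was the fibroblast marker that fell. It had 23.6, 18.8, 19.4 and 24.9 CPM in adult libraries, against 86.3, 131, 161 and 93.5 CPM in young libraries (log2 fold change -2.45, SE 0.31, adjusted p = 0.000564). The groups did not overlap, and Postn passed the threshold in every omission. Some tendon genes fell beside it, with 0 higher and 4 lower of 13 tested and a median of -1.466 (-1.23 without young replicate 4). The 4 are 30.8% of those tested, where 0.35% of all tested genes were lower. The sum of the list overlapped between the ages, at 4000, 3647, 3081 and 3249 CPM in adult libraries, against 2919, 5107, 4115 and 3583 CPM in young libraries. Without adult replicate 1 or 4, 2 were lower, and without adult replicate 2, 1 was. Thbs4, a thrombospondin of tendon and muscle matrix, had 64.5, 81.2, 113 and 85.8 CPM in adult libraries, against 231, 395, 569 and 194 CPM in young libraries (-2.01, adjusted p = 0.0219). Tnmd, the tendon membrane protein tenomodulin, had 4.39, 8.93, 9.29 and 7.78 CPM in adult libraries, against 12.7, 26.5, 35.1 and 147 CPM in young libraries. Young replicate 4 stood far above the other libraries for Tnmd, and without it the log2 fold change was -1.70 (adjusted p = 0.0144) in place of -2.85 (0.0169). Ptx4 had 1.69, 0, 0 and 1.33 CPM in adult libraries, against 11.6, 14.5, 17 and 26.6 CPM in young libraries (-4.58, adjusted p = 0.0028). Col11a1, a minor fibrillar collagen, had at most 0.338 CPM in adult libraries, against 4.11 to 8.64 CPM in young libraries (adjusted p = 0.0142). Thbs4 was lost in 5 of the 8 omissions and Tnmd in 3, with adjusted p-values of up to 0.081 and 0.0667 without adult replicate 4, and Col11a1 was lost without adult replicate 2 (0.0553).

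Heat shock genes were another group with members among the lower genes. They encode chaperones that hold or refold damaged proteins, and many are switched on by heat shock factors bound to repeats of GAA and TTC. Of 24 tested members 6 were lower and 0 higher, with a median of -0.499, and without young replicate 4 these were again 6 and 0 (median -0.362), with Hspa5 in place of Hspb1. The lower members were 25% in both fits, where 0.35% and 1.48% of all tested genes were lower. Without adult replicate 3 or adult replicate 4, 3 were lower, and without adult replicate 2, 4 were. The 250 bases before the start of the following 3 genes are shown because these genes fell and carry a heat shock element core, a pair of inverted repeats. They are RefSeq sequences on GRCm38.p6, written 5′ to 3′ on the gene's strand, with GAANNTTC or TTCNNGAA (N is any base) in capitals. Hspa1b is at chr17:34959239-34959488 (minus strand), Hspb1 at chr5:135887669-135887918 (plus strand) and Hsph1 at chr5:149636337-149636586 (minus strand).
Hspa1b: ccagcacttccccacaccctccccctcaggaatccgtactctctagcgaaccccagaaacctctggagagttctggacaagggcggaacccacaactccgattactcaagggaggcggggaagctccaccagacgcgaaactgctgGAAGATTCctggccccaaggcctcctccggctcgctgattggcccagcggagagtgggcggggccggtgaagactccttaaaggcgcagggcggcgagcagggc
Hspb1: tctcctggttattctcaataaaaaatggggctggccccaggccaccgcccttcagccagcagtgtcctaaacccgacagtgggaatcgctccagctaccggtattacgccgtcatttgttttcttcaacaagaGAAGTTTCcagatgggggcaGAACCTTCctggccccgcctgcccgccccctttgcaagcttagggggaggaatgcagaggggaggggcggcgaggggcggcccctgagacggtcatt
Hsph1: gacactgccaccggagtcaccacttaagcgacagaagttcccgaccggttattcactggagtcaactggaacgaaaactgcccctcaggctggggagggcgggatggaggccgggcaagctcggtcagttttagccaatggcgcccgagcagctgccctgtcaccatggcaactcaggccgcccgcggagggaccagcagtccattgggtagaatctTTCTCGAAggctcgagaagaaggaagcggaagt
The window of Hspb1 holds 2 such pairs and those of Hspa1b and Hsph1 hold 1 each. The windows of Hspa1a and Hspa1b are identical at 247 of 250 bases. Of the 6 lower genes, 4 had a pair in at least 1 window (Hspa1a, Hspa1b, Hspb1 and Hsph1). Of the 19 tested list members with a RefSeq window, 10 had one, and 42.3% of their 26 windows did, where 12.8% of all 32851 windows did. Both motifs read the same on the other strand. A match is a description of the letters and not a bound site.

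Hsp90b1, the chaperone of the endoplasmic reticulum that folds secreted and membrane proteins, had the smallest SE of the 6. It had 941, 881, 777 and 738 CPM in adult libraries, against 1740, 1772, 1473 and 1588 CPM in young libraries (log2 fold change -0.98, SE 0.14, adjusted p = 0.000881). Hspa1b, an inducible HSP70, had 1134, 928, 576 and 450 CPM in adult libraries, against 2121, 2157, 2363 and 2754 CPM in young libraries (-1.60, adjusted p = 0.0187). Every young library had more Hspa1b than any adult one. Its twin Hspa1a fell by 1.57, but the 2 genes share nearly all their sequence, so reads may be split between them. Hsph1, the HSP110 that exchanges the nucleotide of HSP70, had 597, 336, 281 and 196 CPM in adult libraries, against 1188, 1245, 1087 and 620 CPM in young libraries (-1.55, adjusted p = 0.0121, but 0.0778 in the fit of the 8 CD34Lo libraries alone). Dnajb1, the HSP40 that hands clients to HSP70, had 268, 259, 211 and 270 CPM in adult libraries, against 565, 569, 504 and 1052 CPM in young libraries (-1.41, adjusted p = 0.00348). For Dnajb1 the adult values were close together and below even the lowest young value.

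Hspb1, the small chaperone HSP27, had 595, 635, 371 and 556 CPM in adult libraries, against 928, 2288, 776 and 6656 CPM in young libraries. The groups did not overlap, but the young values spread widely, with the highest in young replicate 4. The log2 fold change of Hspb1 was -2.30 (adjusted p = 0.0428) with all libraries and -1.30 (adjusted p = 0.0584) without young replicate 4. Hspb1 was lost in 6 of the 8 omissions, Hspa1a in 5 and Hspa1b in 2, with adjusted p-values of up to 0.134, 0.0919 and 0.077. Summed over the list, heat shock genes had 19799 to 22847 CPM in adult libraries, against 28992 to 30675 CPM in young replicates 1 to 3 and 46943 CPM in young replicate 4. Hspa5, the HSP70 of the endoplasmic reticulum also called BiP, had 5301, 4391, 4736 and 4210 CPM in adult libraries, against 6590, 6514, 7425 and 6260 CPM in young libraries. The adult values were all below the young ones, and Hspa5 passed the threshold without young replicate 4 (-0.55, adjusted p = 0.0146) but not with it (-0.52, 0.0755). On a list of folding factors of the endoplasmic reticulum, written after the values were seen, 1 of 28 was lower with all libraries and 7 without young replicate 4, among them Pdia6 (-0.48) and Hyou1 (-0.87). As shares these were 3.57% and 25%, where 0.35% and 1.48% of all tested genes were lower.

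C2, Cfb and C4b lie in the same stretch of chromosome 17 as Hspa1a and Hspa1b. On mm10, C4b spans 34728380 to 34743882, Cfb 34856374 to 34862518, C2 34862604 to 34898265, Hspa1b 34956436 to 34959238 and Hspa1a 34969190 to 34972156. Within this stretch the 3 complement genes were higher and the 2 HSP70 genes lower in adult cells. These genes were picked because they were called. Other genes of the stretch were in the same fit where their counts allowed, but their values are not given here. A pattern of the stretch was not tested.

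**Figure D2:**
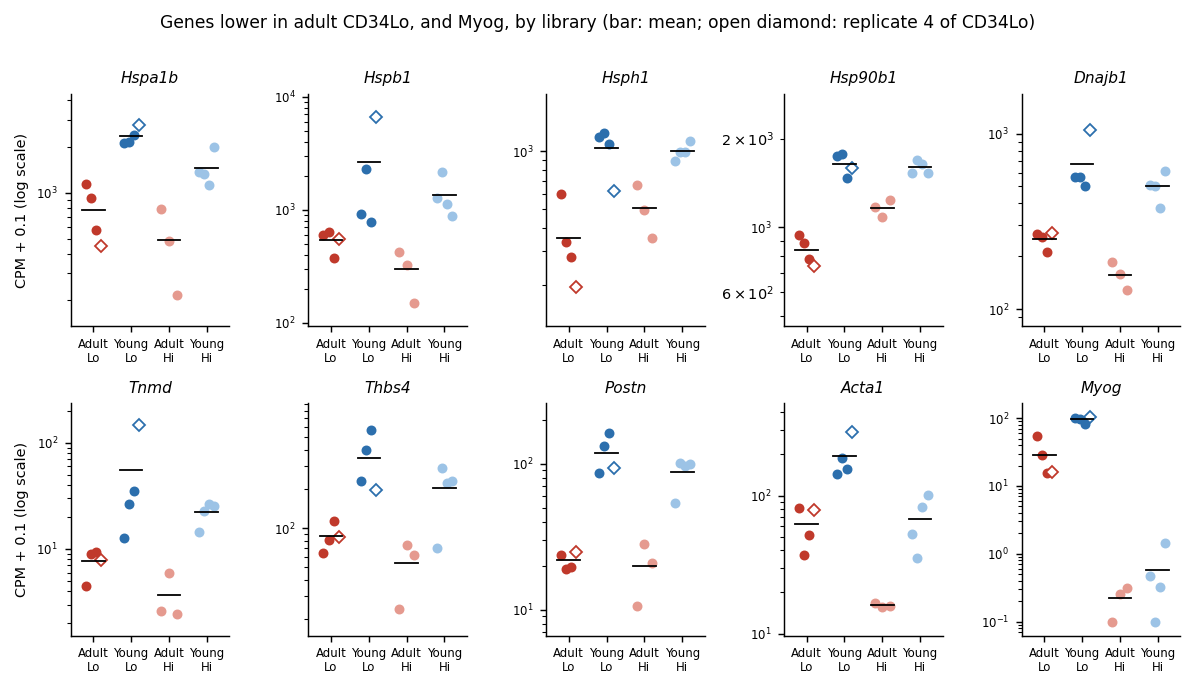
Levels of 9 genes that were lower in adult CD34Lo cells, and of Myog, by library, as CPM + 0.1 on a log axis, for adult and young CD34Lo and adult and young CD34Hi cells. Bars are group means and open diamonds are replicate 4 of each CD34Lo group. Adult CD34Lo libraries lie below young CD34Lo libraries in all 10 panels, and young replicate 4 lies far above the rest for Hspb1 and Tnmd.

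Genes of muscle differentiation and of the fibre had few calls with all libraries and more without young replicate 4. Acta1, the actin of the mature fibre, had 81.7, 37, 51.3 and 78.5 CPM in adult libraries, against 144, 187, 156 and 290 CPM in young libraries (log2 fold change -1.65, adjusted p = 0.0142). It was the 1 lower gene of 30 tested myofibre genes, whose median was -1.088 with all libraries and -0.652 without young replicate 4. In the latter fit 1 of the 30 was higher and 4 were lower. Calls were 3.33% of the list with all libraries and 16.7% in that fit, where 1.63% and 4.2% of all tested genes were called. Klhl41, a sarcomere-associated protein, had 1.86, 2.65, 1.75 and 2.67 CPM in adult libraries, against 7.47, 19.3, 10.7 and 10.9 CPM in young libraries (-2.44, adjusted p = 0.012). Klhl41 was lost without young replicate 2 (adjusted p = 0.0697) and Acta1 without adult replicate 2 (0.0563) or adult replicate 3 (0.0529). Myog had 54.5, 28.3, 15.5 and 16.2 CPM in adult libraries, against 101, 97.8, 81.7 and 103 CPM in young libraries. The Myog groups did not overlap, and the gene passed the threshold without young replicate 4 (-1.70, adjusted p = 0.0219) but not with all libraries (-1.74, 0.0518). Of 32 tested genes of myogenic commitment, 1 was lower with all libraries, Klhl41, and 5 without young replicate 4. The added ones were Myog, the receptor subunit Chrna1 (-0.83), the receptor kinase Musk (-1.16) and desmin, Des (-0.75). Calls on this list were 3.12% with all libraries and 15.6% without young replicate 4, beside the same shares of all tested genes.

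Few of the genes that mark satellite cells passed the test. Pax7, the factor that defines the cells, had 37.8, 38.4, 41.5 and 24.5 CPM in adult libraries, against 29.7, 23.7, 35.9 and 26 CPM in young libraries (log2 fold change 0.30, SE 0.29, adjusted p = 0.7). Its groups overlapped, and every library held Pax7 reads. Myod1 had 1984, 1830, 1908 and 1282 CPM in adult libraries, against 1763, 2308, 1591 and 1663 CPM in young libraries (-0.06, SE 0.17). Myf5 had 247, 316, 314 and 171 CPM in adult libraries, against 503, 472, 366 and 408 CPM in young libraries. The Myf5 groups did not overlap, yet the gene missed the threshold with all libraries (-0.74, adjusted p = 0.139) and narrowly without young replicate 4 (-0.77, adjusted p = 0.0531). Neither Spry1 (0.21), an inhibitor of growth factor signalling in quiescence, nor Itga7 (-0.32), which encodes the integrin of the sort, passed the threshold. Calcr, the calcitonin receptor of quiescent cells, had 178, 105, 131 and 114 CPM in adult libraries, against 270, 214, 228 and 94.5 CPM in young libraries. It passed the threshold without young replicate 4 (-0.84, adjusted p = 0.0221), which held its lowest young value, and not with it (-0.61, 0.346).

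Cd34, which encodes the marker that set the gate, rose. It had 178, 165, 139 and 191 CPM in adult libraries, against 89.3, 96.3, 88.6 and 81.1 CPM in young libraries (log2 fold change 0.92, SE 0.16, adjusted p = 0.00606). Every adult library stood above every young one, and the call held in all 8 omissions but not in the fit of the 8 CD34Lo libraries alone (adjusted p = 0.069). In CD34Hi cells Cd34 stood at 282 ± 22.7 CPM in adult libraries (SD, n = 3) and 230 ± 28.8 CPM in young libraries (SD, n = 4), so adult CD34Lo cells at 168 ± 22.4 CPM (SD, n = 4) lay between young CD34Lo and young CD34Hi cells. Igfbp4, which binds insulin-like growth factors, was the other quiescence gene that rose, of 41 tested (1.26, adjusted p = 0.0363). It was lost in 5 of the 8 omissions (adjusted p of up to 0.126, without young replicate 1). Without young replicate 4, 4 of the 41 were higher and 4 lower. Calls were 4.88% of the list with all libraries and 19.5% in that fit, where 1.63% and 4.2% of all tested genes were called. Igf1, an anabolic growth factor, had 21.3, 28.1, 15.6 and 21.3 CPM in adult libraries, against 51, 43, 48.3 and 40.6 CPM in young libraries (-1.08, adjusted p = 0.018). Igf1 was lost in 4 of the 8 omissions, with an adjusted p of up to 0.0664 without adult replicate 3.

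FoxO factors keep satellite cells quiescent and are the subject of the series. Foxo1 had 16.4, 38.4, 30.6 and 33.3 CPM in adult libraries, against 17.6, 23.5, 27 and 33.5 CPM in young libraries (log2 fold change 0.22, SE 0.26, adjusted p = 0.767). The ranges of the 2 ages were nearly the same. Foxo3 reached at most 4.56 CPM and Foxo4 at most 1.82 CPM in the 8 libraries, and neither passed the threshold. Of 39 tested FoxO target genes, 0 were higher and 1 was lower (median -0.023), namely 8430408G22Rik, also called Depp1, with 4.39, 3.8, 0.808 and 10.9 CPM in adult libraries, against 20, 22.3, 28.5 and 57.2 CPM in young libraries (-2.72, adjusted p = 0.0147). It was lost without adult replicate 2 (adjusted p = 0.0635). Calls were 2.56% of the list with all libraries and 5.13% without young replicate 4, where 1.63% and 4.2% of all tested genes were called. Without young replicate 4 Pdk4, which spares glucose by inhibiting pyruvate dehydrogenase, was lower too (-1.53, adjusted p = 0.000176), with 260, 215, 197 and 143 CPM in adult libraries, against 631, 675 and 464 CPM in young replicates 1 to 3 and 124 CPM in young replicate 4. None of 28 tested Notch genes was called with or without young replicate 4. Notch1 had a log2 fold change of 0.53 (SE 0.27, adjusted p = 0.405) and Hey1 of -0.62 (SE 0.24, adjusted p = 0.252).

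Signals of inflammation and interferon rose in a few members. Of 38 tested inflammation genes 3 were higher and 0 lower (8 and 0 without young replicate 4), and of 43 tested interferon and antigen presentation genes 3 were higher and 0 lower (8 and 0 without it). As shares these were 7.89% and 6.98% with all libraries, where 1.28% of all tested genes were higher. Without young replicate 4 they were 21.1% and 18.6%, where 2.72% of all tested genes were higher. The inflammation count was 0 without young replicate 1 or adult replicate 4 and 1 without young replicate 2 or 3 or adult replicate 2, and the interferon count was 2 without young replicate 2 or adult replicate 2, 3 or 4 and 5 without adult replicate 1. Gbp2, an interferon-induced GTPase, had 168, 197, 204 and 299 CPM in adult libraries, against 104, 94.1, 101 and 71.6 CPM in young libraries (log2 fold change 1.22, adjusted p = 0.00353). Oasl2, of the interferon-induced OAS family, had 59.1, 86.1, 72.8 and 124 CPM in adult libraries, against 27.5, 32.8, 32.6 and 22.7 CPM in young libraries (1.56, adjusted p = 0.00545). The adult libraries lay above the young ones for both genes. Tapbp (1.01), which loads peptides on MHC class I, the adhesion receptor Icam1 (1.24), the alarmin Il33 (1.34) and the prostaglandin synthase Ptgs2 (2.76) rose with less support, each being lost in 3 to 6 of the 8 omissions. For Ptgs2 the value of adult replicate 4 was 284 CPM, against 50.5 to 63.1 CPM in the other adult libraries. Leukocyte markers had 0 calls among 19 tested genes and a median of 1.269, which was -0.079 without adult replicate 4 and 1.834, with 1 gene higher, without young replicate 4. They summed to 58, 118, 131 and 768 CPM in adult libraries, against 65, 49, 167 and 514 CPM in young libraries, and Ptprc, which encodes CD45, reached at most 5.33 CPM. Replicate 4 of each age held the highest sum, and its part in the inflammation genes was not tested.

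Enzymes were among the genes with a large rise. Hpgd, which inactivates prostaglandins, had 70.4, 111, 83.4 and 198 CPM in adult libraries, against 8.78, 9.18, 4.32 and 23.5 CPM in young libraries (log2 fold change 3.35, adjusted p = 0.001). Fmo2, a flavin monooxygenase of drug metabolism, had 671, 758, 629 and 1165 CPM in adult libraries, against 177, 145, 171 and 175 CPM in young libraries (2.27, adjusted p = 0.00045). In both enzymes the groups were far apart. The zinc transporter Slc39a8 (2.94), the glucuronosyltransferase Ugt1a7c (3.07), the annexin Anxa8 (3.37) and the kininogen Kng2 (2.95) rose and were kept in every omission. So were Fgfr2, a fibroblast growth factor receptor (2.80), the iron carrier gene Trf (1.70) and the matrix-associated Aebp1 (1.85). Wfdc2, Lrp2, Chil1 and Gata6 also passed the threshold with all libraries (3.63, 3.17, 3.06 and 2.89) but were lost in 5, 6, 7 and 3 of the 8 omissions, with adjusted p-values of up to 0.0739, 0.139, 0.137 and 0.105 without adult replicate 4. Slc6a14 (3.31) and Col4a6 (2.98) were lost in 3 omissions each, with adjusted p-values of up to 0.112 and 0.0806.

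**Figure D3:**
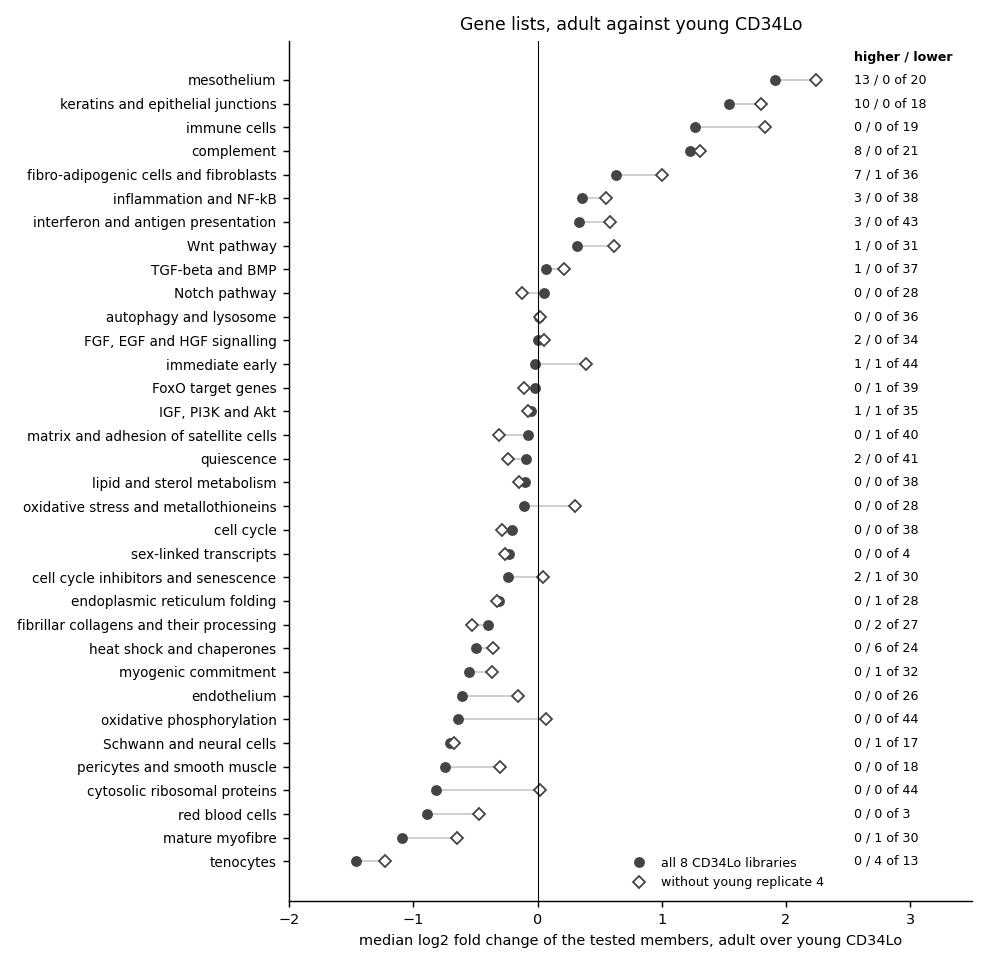
Median log2 fold change of the tested members of each gene list, adult over young CD34Lo, with all 8 libraries (filled) and without young replicate 4 (open). The column on the right counts the members past the threshold with all libraries, from 13 higher of 20 for mesothelium to 4 lower of 13 for tenocytes, and lists with 0 calls can still have a median away from 0. The lists of mesothelium, complement, keratins and epithelial junctions, endoplasmic reticulum folding and fibrillar collagens were written after the values were seen. Their ranks are therefore no result.

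Young replicate 4 shifted whole lists. The cytosolic ribosomal proteins had a median of -0.817 with it and 0.018 without it over 44 tested genes, and oxidative phosphorylation genes had -0.638 and 0.067, also over 44, with 0 calls in either. Among the genes tested with all libraries, its omission added 330 to the calls and removed 2. The added ones include collagens and their helpers. On the satellite cell matrix list 0 were higher and 1 lower of 40 tested with all libraries, and 0 and 7 without young replicate 4. As shares the lower ones were 2.5% and 17.5%, where 0.35% and 1.48% of all tested genes were lower. Col4a1 and Col4a2, which encode basement membrane chains, were lower by 0.80 and 0.84 without young replicate 4, the fibrillar Col3a1 by 0.82 and the collagen chaperone Serpinh1 by 0.78. On a list of fibrillar collagens and their processing, written after the values were seen, 2 of 27 were lower with all libraries (Col11a1 and Postn), and 1 was higher and 7 lower without young replicate 4. Col3a1 had 1350, 832, 978 and 874 CPM in adult libraries, against 1880, 1653, 1843 and 258 CPM in young libraries. Young replicates 1 to 3 thus lay above all adult libraries, and young replicate 4 below them all. Slpi, a protease inhibitor of epithelia, went the other way, with 745, 1286, 980 and 2567 CPM in adult libraries, against 196, 161, 142 and 1091 CPM in young libraries. Slpi was higher by 3.08 without it (adjusted p = 0.000176), against 1.81 with it (adjusted p = 0.146). Lists of the cell cycle, autophagy, oxidative stress, lipid and sterol metabolism, endothelium, pericytes and red blood cells had 0 calls with all libraries. Without young replicate 4, 6 of 28 oxidative stress genes were higher (median 0.303, against -0.111 with it), as were 2 of 38 cell cycle genes. As shares these were 21.4% and 5.26%, where 2.72% of all tested genes were higher in that fit. In that fit 1 lipid and sterol gene was higher and 1 lower. Also lower there were 1 autophagy and lysosome gene and 1 pericyte and smooth muscle gene.

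**Figure D4:**
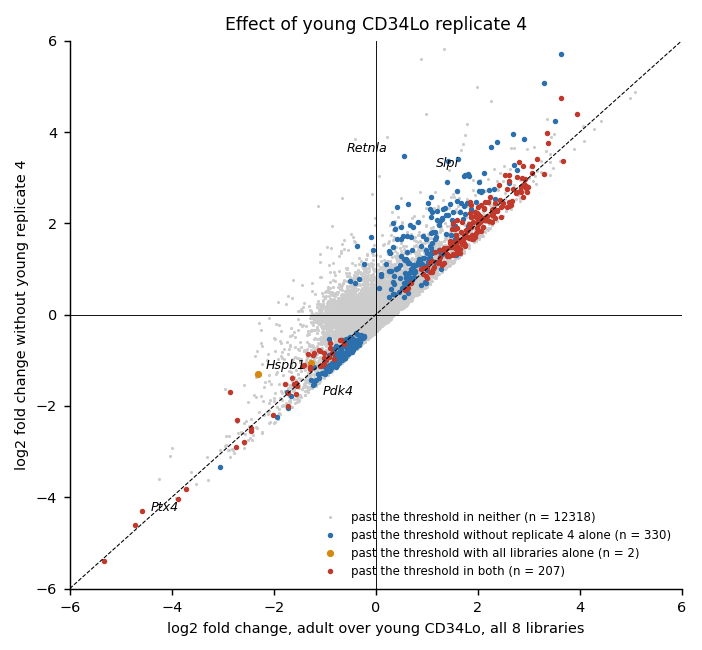
Log2 fold change of each gene, adult over young CD34Lo, with all 8 libraries (x) and without young replicate 4 (y). Red points passed the threshold in both fits (207 genes), blue in the fit without that library alone (330) and orange with it alone (2, Hspb1 and Mal), and 10 genes lie outside the axes.

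The rise of some mesothelial and complement genes differed between the CD34 gates. In CD34Hi cells 13 genes were higher and 14 lower in adult than in young mice (0.21% called, 0.101% higher and 0.109% lower). The number of calls in each gate depends on the fit. With only the libraries of the groups compared, 200 genes were called in CD34Hi and 137 in CD34Lo cells, and DESeq2 called 201 and 535. Of the 209 genes called in CD34Lo cells, 7 higher and 7 lower ones were also called the same way in CD34Hi cells and 0 the opposite way. The test of the difference itself, the CD34Lo minus the CD34Hi fold change, called 61 genes higher and 1 lower of 12857 (0.482% called, 0.474% higher and 0.00778% lower). It called 54 of the 164 higher genes and 0 of the 45 lower ones. Of the mesothelial genes 12 of 20 were called in this test, and of the complement genes 6 of 21. Both lists were written after the CD34Lo values were seen, and this test contains those values. The list counts are therefore no independent support. Msln stood at 61.3 ± 7.86 CPM in adult CD34Hi libraries (SD, n = 3) and 90.7 ± 32.2 CPM in young CD34Hi libraries (SD, n = 4), with a difference of 3.00 between the gates (adjusted p = 0.00438). Cfb stood at 91.8 ± 16.9 CPM in adult CD34Hi libraries and 87.6 ± 33.3 CPM in young CD34Hi libraries (difference 2.78, adjusted p = 0.00438). C3 had a difference of 3.07 (adjusted p = 0.0114). The mesothelial list summed to 1558 to 1819 CPM in adult CD34Hi libraries, against 1439 to 2111 CPM in young CD34Hi libraries. Adult CD34Lo cells thus stood above the 3 other groups in this list. Calls in this test ran from 26 genes without adult CD34Hi replicate 1 to 146 without young CD34Lo replicate 4.

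**Figure D5:**
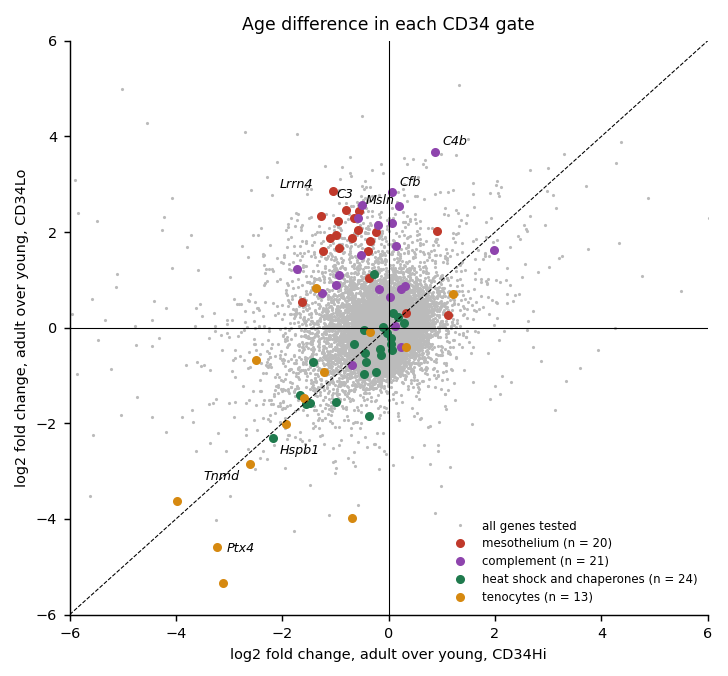
Log2 fold change of each gene, adult over young, in CD34Hi (x) and CD34Lo cells (y), with 4 gene lists in colour and equality dashed. The mesothelial and complement genes lie mostly above the horizontal line and near or left of the vertical one, while the heat shock and tenocyte genes that fell lie below the horizontal line and left of the vertical one, and 19 genes lie outside the axes.

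The genes called the same way in both gates included Dio2, Elovl4, Lbp, Myo1d, Plau, Spock3 and Tshr among the higher ones and Acta1, Dnajb1, Igf1, Jmjd1c, Postn and Sphk1 among the lower ones. The following 3 are described after their values were seen. Dio2, the deiodinase that activates thyroid hormone, stood at 268 ± 54.9 CPM in adult and 63.9 ± 29.5 CPM in young CD34Lo libraries (SD, n = 4 each), with a log2 fold change of 2.07 (adjusted p = 0.000836). In CD34Hi cells Dio2 stood at 734 ± 54.2 CPM in adult libraries (SD, n = 3) and 123 ± 15 CPM in young libraries (SD, n = 4), with a log2 fold change of 2.58 (adjusted p = 0.000995). Tshr, the receptor of thyrotropin, had 29.7, 28.8, 39.4 and 13.1 CPM in adult CD34Lo libraries, against 9.16, 11.5, 7.73 and 8.92 CPM in young CD34Lo libraries (1.58, adjusted p = 0.0255, but 0.0918 without adult replicate 3). Lbp, which binds bacterial lipopolysaccharide, had 64.3, 69.8, 86.5 and 93.8 CPM in adult CD34Lo libraries, against 22.8, 27.9, 15.3 and 25.1 CPM in young CD34Lo libraries (1.79, adjusted p = 0.000564). For none of these 3 genes did the difference between the gates pass the threshold. Among the lower genes, Postn fell by 2.15 and Dnajb1 by 1.67 on the log2 scale in CD34Hi cells (adjusted p = 0.01 each). Cyp26a1, which degrades retinoic acid, was the 1 gene lower in the test of the difference between the gates (-1.74, adjusted p = 0.00654), with a log2 fold change of 2.45 in CD34Hi cells and 0.71 in CD34Lo cells (adjusted p = 0.0818).

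Geriatric CD34Lo cells of experiment 1 were compared with their own young cells in a table of their own, so values are set side by side with no test across the tables. There 975 genes were higher and 502 lower of 12163 tested (12.1% called, 8.02% higher and 4.13% lower). Of the genes tested in both tables, 104 were higher in adult cells and 13 of these (12.5%) were also higher in geriatric cells, which is 1.35% of the 964 higher in geriatric cells. Of 40 genes lower in adult cells, 1 (2.5%) was also lower in geriatric cells, which is 0.201% of 497, and 4 were higher. Cd34 was higher at both ages, by 0.92 in adult and 1.99 in geriatric cells (adjusted p = 0.00489 in geriatric cells), as was Igfbp4 (1.26 and 1.98, adjusted p = 0.0134). Oasl2 (1.56 and 4.65), Plau, the urokinase (0.69 and 2.14), and Tshr (1.58 and 5.63) were also higher at both. Plau was lost in 6 of the 8 omissions, with an adjusted p of up to 0.112 without adult replicate 4.

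Hspb1 had the opposite sign at the later age, at -2.30 in adult and 2.24 in geriatric cells (adjusted p = 0.0318 in geriatric cells). The adult value was -1.30 (adjusted p = 0.0584) without young replicate 4, and Hspb1 was lost in 6 of the 8 omissions. Calls in the geriatric comparison ran from 680 to 2858 over its own omissions. The demethylase-family gene Jmjd1c also had opposite signs, at -0.92 in adult (adjusted p = 0.00379) and 1.67 in geriatric cells (adjusted p = 0.0119). Jmjd1c had 113, 105, 137 and 102 CPM in adult CD34Lo libraries, against 209, 215, 228 and 212 CPM in young CD34Lo libraries of experiment 2. In experiment 1 it had 606, 561, 240.4 and 446 CPM in geriatric libraries, against 139, 124, 181 and 138 CPM in young libraries. Msln, Upk3b and Cfb were too low to be tested in experiment 1. The mesothelial list summed to 350 to 526 CPM in geriatric libraries, against 345 to 551 CPM in the young libraries of that table. Of 16 complement genes tested there 1 was higher and 0 lower (median 1.157), and the list summed to 1283 to 3091 CPM in geriatric libraries, against 1062 to 1313 CPM in young libraries. For C3 the log2 fold change in geriatric cells was 0.80 (adjusted p = 0.805), with at most 9.1 CPM in any library.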

How the data were processed

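RNA of sorted cells was sequenced after amplification of its cDNA. The values used are raw counts per gene symbol as deposited by the authors, whole numbers with no scaling. The tools named in the submitters' processing notes are TopHat2 2.1.1, HTSeq, Partek 7.0, Trim Galore and bcl2fastq 2.17.1, with the build mm10. Annotation, strand and counting options: not given in the sources used here. Each table column was matched to its sample by the library number in its label.

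From these counts, all 15 libraries of experiment 2 were fitted together in R 4.3.3 with edgeR 4.0.16 (group means, TMM, filterByExpr with a minimum count of 10 and total of 15, quasi-likelihood F-test). The 16 libraries of experiment 1 were fitted apart. SE is the log2 fold change over the square root of F. Libraries of experiment 2 held between 4.16 M and 8.91 M counts and those of experiment 1 between 6.27 M and 16.11 M, and amplified counts are not separate molecules. Every replicate pair of the CD34Lo groups differed beyond sampling noise (chi-square over its degrees of freedom at least 9.92). On simulated counts of this comparison with 12592 genes, the fit recovered 22 of 100 genes changed 2-fold and 88 of 100 changed 4-fold, with 5 false calls. Apart from the changed genes, all simulated libraries had the same mean profile, and none stood apart as young replicate 4 does. The recovery and the false calls hold for that setting and are no error rates of the real comparison.

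Members and lists were chosen with earlier results of these data known. Of the lists, 29 were written with the design and 5 after the values were seen (mesothelium, complement, keratins and epithelial junctions, endoplasmic reticulum folding, fibrillar collagens and their processing). Named genes are first the 14 with the largest change and the 10 with the highest CPM each way. These were past the threshold with a mean of at least 8 CPM and no overlap. Up to 6 each way were named for the fit without young replicate 4, with the same mean and no overlap of the remaining libraries. Up to 6 each way were named for the difference between gates, with that mean but no condition on overlap. Up to 4 each way per list needed the threshold alone, and 29 genes were named regardless of result. Other names were added after their values were seen. Alternatives were DESeq2 1.42.0, voom of limma 3.58.1 with quality weights, other scalings, no filter, fewer libraries and a replicate block. Gene positions are those of GENCODE on mm10 and promoter windows those of RefSeq. A few genes are not reported here.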

Additional observations from a re-analysis of the deposited data

Results flagged for a closer look

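In a group of 4 libraries, a library was singled out when its gap to the nearest other exceeded Dixon's critical share of the range of the group. Of 68 groups of list sums and 96 groups of single genes, chance alone would single out about 1 in 20. Most of the list sums singled out belonged to young CD34Lo replicate 4.

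Young replicate 4 stood apart in its summed CPM for quiescence (13639), mature myofibre (1316), heat shock (46943), FoxO targets (7225), cell cycle (1227), cell cycle inhibitors and senescence (29756), inflammation (33072), interferon and antigen presentation (12185), TGF-beta and BMP (6834), oxidative stress (39372), oxidative phosphorylation (20166), ribosomal proteins (69740), lipid and sterol metabolism (6156), sex-linked transcripts (413), mesothelium (2664) and endoplasmic reticulum folding (16706). Adult replicate 4 stood apart for fibroblast markers (21256), endothelium (3117) and immune cells (768).

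Among single genes, young replicate 4 stood apart for Wfdc2 (4.26 CPM), Tnmd (147 CPM), Socs2 (119 CPM), Dnajb1 (1052 CPM), C3 (243 CPM) and Gfpt2 (236 CPM). Adult replicate 4 stood apart for Slc6a14 (67.4 CPM), Kng2 (66.7 CPM), Gfpt2 (1677 CPM), Efemp1 (1627 CPM) and Aebp1 (816 CPM). Adult replicate 3 stood apart for Col4a6 (24.8 CPM) and young replicate 2 for Slc6a14 (8.29 CPM).

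The age difference in CD34Lo cells differed from that in CD34Hi cells, by the test of the difference itself, for 62 genes. The named ones with the largest differences were Pcsk6 (5.47), Anxa8 (4.57), Gata6 (4.44), Lrrn4 (3.89), Tmem151a (3.74) and Bnc1 (3.63), on the log2 scale. Cyp26a1 (-1.74) is named as the 1 gene with a lower difference. The cause was not tested.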

How the results depend on the processing

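The 209 genes called in CD34Lo cells became 535 with DESeq2, 771 with voom and quality weights, 137 with only the libraries of the groups compared and 315 without replicate 4 of either age (chosen after seeing the data). Omission of 1 library gave 114 (without adult replicate 4) to 538 (without young replicate 4). The share of calls that were higher was 78.5% in the fit as reported, 68.4% with DESeq2, 63.4% with voom and 64.7% without young replicate 4. Scaling by total counts alone gave 205 higher and 33 lower, and moved the median of all genes to 0.067, against -0.043. The 538 genes without young replicate 4 became 992 with DESeq2 and 900 with voom. The 62 genes that differed between the gates became 199 and 234, with 26 to 146 over the omissions. The 27 genes of CD34Hi cells became 201, 654 and, with only the libraries compared, 200, with 4 to 21 over the omissions. The 1477 genes of geriatric cells became 2461 and 3001, with 680 to 2858 over the omissions. The cause of these shifts was not tested. Of 86 named genes past the threshold, 42 passed it in every alternative and 44 were lost in at least 1. None of these 86 changed sign in these alternatives.

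Some named genes short of the threshold changed sign, among them Ly6a and Hes1, which had log2 fold changes of -0.76 and -0.97 in the fit as reported. Myod1 had 0.04 with total counts, 0.01 without replicate 4 of either age and -0.13 to 0.07 over the omissions. Foxo3 had -0.02 with voom and -0.03 to 0.43 over the omissions. Notch3 had -0.12 with voom, -0.06 without replicate 4 of either age and -0.10 to 0.31 over the omissions. Hes1 had 0.63, 0.32 and -1.31 to 0.53, Heyl had -0.21, -0.11 and -0.25 to 0.21, and Fos had 0.23, 0.13 and -0.39 to 0.12 in the same settings. Egr1 had 0.02 with total counts and -0.21 to 0.11 over the omissions. Over the omissions Ly6a had -1.89 to 0.50, Pecam1 -0.79 to 0.29 and Ptprc -3.91 to 1.01. Ptprc had -0.01 with the replicate block and -3.46 without replicate 4 of either age.

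Library numbers run in 4 rounds over the groups. Deviations of the adult and young CD34Lo libraries of a round had correlations of 0.376, -0.102, 0.177 and 0.376. Those of different rounds had -0.417 to 0.325. The labels do not say what a round shares, so the samples were not paired in the fit as reported. An effect of the rounds was not tested. With the replicate block on rounds, 270 genes were called in CD34Lo cells, 438 without young replicate 4 and 80 between the gates. On simulated counts with 4 libraries a CD34Lo group and no library that stood apart, most 2-fold changes were missed. The part of depth in this was not tested.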
